A study of Mus musculus with 2 samples.

Results

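The nuclear-encoded subunits of the oxidative phosphorylation (OXPHOS) system were compared between sorted muscle stem cells of double-knockout (dKO) and wild-type (WT) mice. With earlier results of these data known, members were chosen by gene symbol, by a rule that used no measured values. They were the protein-coding genes whose symbols start with Ndufa, Ndufb, Ndufc, Ndufs, Ndufv, Uqcr, Cox4i, Cox5, Cox6, Cox7, Cox8 or Atp5, together with Sdha to Sdhd, Cyc1 and Cycs, and without the Ndufaf and Sdhaf assembly factors. This gave 87 genes of the 24532 gene IDs in the deposited count table. By symbol they fall into complex I (38 genes), complex II (4 genes), complex III (9 genes, Cyc1 among them), cytochrome c (1 gene, Cycs), complex IV (18 genes) and complex V (17 genes). Ndufa4, a known complex IV subunit, and its relative Ndufa4l2 stand with complex I by their prefix, and the supercomplex factor Cox7a2l stands with complex IV.

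There were 2 RNA-seq libraries, 1 of dKO and 1 of WT cells, from male mice backcrossed to C57BL/6. The dKO genotype combined Pax7-CreER (a Cre recombinase that tamoxifen activates, expressed under Pax7, the transcription factor that marks muscle stem cells), Esr2-/- (loss of estrogen receptor beta in every cell of the animal) and a Cre-deletable gene that is not reported here. The WT label gives no further allele. Gene deletion was induced with oral tamoxifen (20 mg/mL in corn oil, for 5 days) at 3 months of age; the labels do not say separately whether the WT mice received it, how many animals gave each library, or what the mark 6M in the sample titles means. Cells from digested limb muscle were sorted for surface Vcam1 and against Sca1, the endothelial marker CD31 and the leukocyte marker CD45, and RNA was extracted without culture.

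The dKO library held 43699831 reads and the WT library 36636680 reads on 36780 transcript entries. The values of a gene's entries were summed and scaled to counts per mega-read of library size (CPM) with trimmed-mean library sizes, and a log2 ratio is log2 of (dKO CPM + 1) over (WT CPM + 1). A gene with at least 10 counts in either library is called measured, which held for 14885 genes, and their median log2 ratio was -0.02. With 1 library per genotype there is no replicate and no test of the genotype, so every statement compares these 2 libraries, and intervals (95%, exact) cover counting error only. Esr2 itself had 45 counts in the dKO library and 71 counts in the WT library, which are low in both; with the deleted part of the gene not given in the sources used here, gene-wide counts do not check the label. Markers of muscle stem cells summed to 8780 CPM in the dKO library and 6626 CPM in the WT library, of which Sdc4 alone held 4872 CPM in dKO and 2980 CPM in WT. Of the 8 markers 4 were above 0, their median was 0.11 (-0.27 with a trend on abundance and length over all measured genes removed), and Vcam1, used for the sort, was higher in dKO (log2 ratio 0.83) and Pax7 was lower (-0.82). Markers of endothelial cells (242 CPM in dKO, 533 in WT), immune cells (19.1 CPM in dKO, 85.3 in WT), fibro-adipogenic progenitors (628 CPM in dKO, 1127 in WT) and mural cells (760 CPM in dKO, 1172 in WT) were lower in dKO, and no gene of these lists was at 0 in either library. Haemoglobin was high in the dKO library alone, where Hbb-bs had 6071 counts against 4 counts in WT. In such bulk samples fewer cells of a type and less RNA per cell cannot be told apart.

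Oxidative phosphorylation passes electrons from NADH (complex I) and succinate (complex II) through complex III and the small carrier cytochrome c to oxygen at complex IV. The proton gradient built on the way drives ATP synthase, complex V. The complexes other than complex II are mosaics of subunits from the mitochondrial and the nuclear genome, and the nuclear subunits must be transcribed from genes scattered over the chromosomes. The transcription factors NRF1, the ETS-family factor GABP and YY1 are known to bind many of these promoters, with the coactivators Ppargc1a and Pprc1. Quiescent muscle stem cells are known for a low metabolic rate, and OXPHOS subunits are among the genes that are more active once the cells leave quiescence. The subunits encoded by mitochondrial DNA were not analysed here.

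Promoter sequence was not used in the choice by symbol, and a few promoters that hold short words known for NRF1, the ETS factors or YY1 are shown as examples. Of the 70 members with a window, 11 (15.7%) hold any of the words, so most do not. Any of the words was held by 6.51% of all genes with a window and by 10.97% of measured protein-coding genes with one. RefSeq promoter windows of 250 bases before the transcription start were matched for 70 of the 87 members (75 windows, GRCm38.p6). The palindromic core of the NRF1 site, CGCATGCG, was found in windows of 8 members (Cycs, Ndufa8, Ndufa11, Cox6a1, Atp5g2, Atp5j, Atp5k and Atp5l), that is in 10.7% of member windows against 1.55% of 32851 windows of all genes and 2.84% of windows of measured protein-coding genes. The ETS word CCGGAAGT, on either strand, was found in 3 members (Uqcr11, Uqcrh and Atp5h), in 4.0% of member windows against 2.88% of windows of all genes and 5.17% of those of measured protein-coding genes. The YY1 word AAGATGGC was found in 1.33% of member windows, against 1.56% of windows of all genes and 1.77% of those of measured protein-coding genes. It was found in 1 member, Atp5j, whose window also holds the NRF1 word elsewhere. No base is shared between these matches. A match describes letters only and is no evidence of binding. The 8-letter forms were used after longer words had found few members or none, so the shares beside the background are no test of enrichment. In the windows of 4 members, given 5′ to 3′ on the strand of the gene, capitals mark the NRF1 word or, for Uqcrh, the ETS word read on the other strand. The first capital lies at position -61 from the start in Cycs (chr6:50566570-50566819, minus strand), -161 in Cox6a1 (chr5:115348959-115349208, minus strand), -49 in Atp5k (chr5:108434400-108434649, minus strand) and -11 in Uqcrh (chr4:116075071-116075320, minus strand).
Cycs: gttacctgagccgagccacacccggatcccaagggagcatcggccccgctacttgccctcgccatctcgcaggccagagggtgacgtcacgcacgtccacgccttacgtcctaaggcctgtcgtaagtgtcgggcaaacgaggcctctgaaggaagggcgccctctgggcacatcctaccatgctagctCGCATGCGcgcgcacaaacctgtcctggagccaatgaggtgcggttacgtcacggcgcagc
Cox6a1: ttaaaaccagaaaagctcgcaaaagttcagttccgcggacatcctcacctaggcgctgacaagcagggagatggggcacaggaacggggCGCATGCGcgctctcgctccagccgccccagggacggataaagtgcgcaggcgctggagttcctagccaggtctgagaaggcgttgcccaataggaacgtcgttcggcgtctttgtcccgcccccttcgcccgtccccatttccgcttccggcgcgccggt
Atp5k: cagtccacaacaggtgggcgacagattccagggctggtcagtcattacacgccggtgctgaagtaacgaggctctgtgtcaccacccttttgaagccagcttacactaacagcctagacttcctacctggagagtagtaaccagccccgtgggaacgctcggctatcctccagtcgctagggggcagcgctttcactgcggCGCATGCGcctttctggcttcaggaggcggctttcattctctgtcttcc
Uqcrh: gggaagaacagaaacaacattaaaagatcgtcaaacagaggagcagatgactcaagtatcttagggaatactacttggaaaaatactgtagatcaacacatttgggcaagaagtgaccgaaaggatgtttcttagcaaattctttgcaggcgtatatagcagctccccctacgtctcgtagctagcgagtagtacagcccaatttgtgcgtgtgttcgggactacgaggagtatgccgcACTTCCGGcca

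All 87 members had an entry, and 85 were measured. The other two, Cox7b2 and Cox8c, isoforms known from testis, had 0 counts in both libraries, which at a limit of 3 counts allows up to 0.0750 CPM in each. Levels per length (CPM per kilobase of transcript, used wherever genes are compared with each other) ran from 3.61 to 562 in the dKO library and from 2.504 to 361 in the WT library. The order of the members was nearly the same in both, with a Spearman correlation of 0.98 across the 85 genes, which share libraries and lengths. Atp5b, the catalytic beta subunit of ATP synthase, led both, and the lowest were the isoforms Cox4i2 and Cox7a1 in dKO and Cox6b2 and Ndufs5 in WT.

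**Figure D1:**
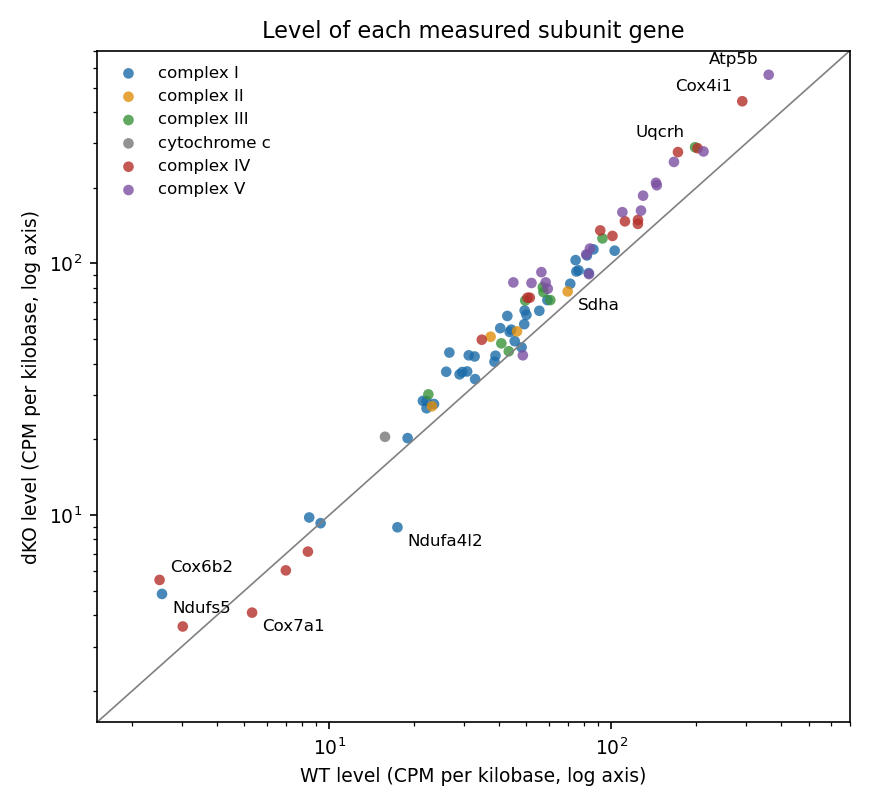
Level of each of the 85 measured subunit genes in the dKO library (vertical axis) and in the WT library (horizontal axis), in CPM per kilobase on log axes; each point is 1 gene, coloured by complex, and the line marks equal levels. Most points lie a little above the line, up to Atp5b (562 in dKO, 361 in WT). At the low end the points lie on both sides. Cox6b2 (5.53 in dKO, 2.504 in WT), Ndufs5, Cox4i2, Ndufa11 and Cycs are above the line there. Cox7a1, Cox6a2, Cox8b, Ndufs4 and Ndufa4l2 are below it, and Ndufa4l2 lies furthest below.

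Subunits of every complex were mostly a little higher in the dKO library. Of the 85 measured members, 78 had a log2 ratio above 0, against 47.6% of all measured genes, and the median was 0.37 with quartiles of 0.21 and 0.50. A rule of 1.2-fold on this scale was met by 53 members in the direction of higher in dKO, against 26.6% of all measured genes, and by 1 member, Ndufa4l2, in the direction of lower in dKO, against 30.7%. At 1.5-fold the counts were 10 higher (background 8.98%) and 1 lower (background 13.1%). On this scale, which includes the pseudocount, no member was 2-fold apart in either direction, where 1.92% of all measured genes were higher and 4.3% lower in dKO. Without the pseudocount, Cox6b2 was 2.27-fold higher in dKO (1.62 to 3.21), with 118 counts in dKO and 52 in WT. Summed over all members, the reads made up 0.639% of the dKO library (0.637 to 0.642) and 0.573% of the WT library (0.570 to 0.575), and the summed CPM was 1.33-fold higher in dKO (1.32 to 1.34).

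With library totals in place of trimmed-mean sizes, the median of all measured genes was -0.24 and that of the members 0.12, so the members stood above all genes by a like amount.

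As measured, the size of the shift differed by complex, smallest in complexes I and II and largest in complex V. The median log2 ratio was 0.27 for complex I, 0.22 for complex II, 0.42 for complex III, 0.44 for complex IV and 0.51 for complex V, and Cycs had 0.37. The ranges overlap, from -0.89 to 0.69 in complex I and from -0.17 to 0.88 in complex V. The upper quartile of complex I, 0.39, was exceeded by 14 of 17 genes of complex V, 9 of 16 of complex IV, 6 of 9 of complex III and 1 of 4 of complex II. Summed CPM was 1.21-fold higher in dKO for complex I (1.195 to 1.22), 1.15-fold for complex II (1.13 to 1.18), 1.31-fold for complex III (1.29 to 1.34), 1.39-fold for complex IV (1.37 to 1.41) and 1.41-fold for complex V (1.40 to 1.42). With the trend on abundance and length removed, the medians were 0.035 for complex I, 0.0071 for II, 0.056 for III, -0.0018 for IV and 0.081 for V. The order as measured was thus not kept, and complex IV was then lowest. The difference between complexes was not tested, since the genes of 1 pair of libraries are not replicates.

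**Figure D2:**
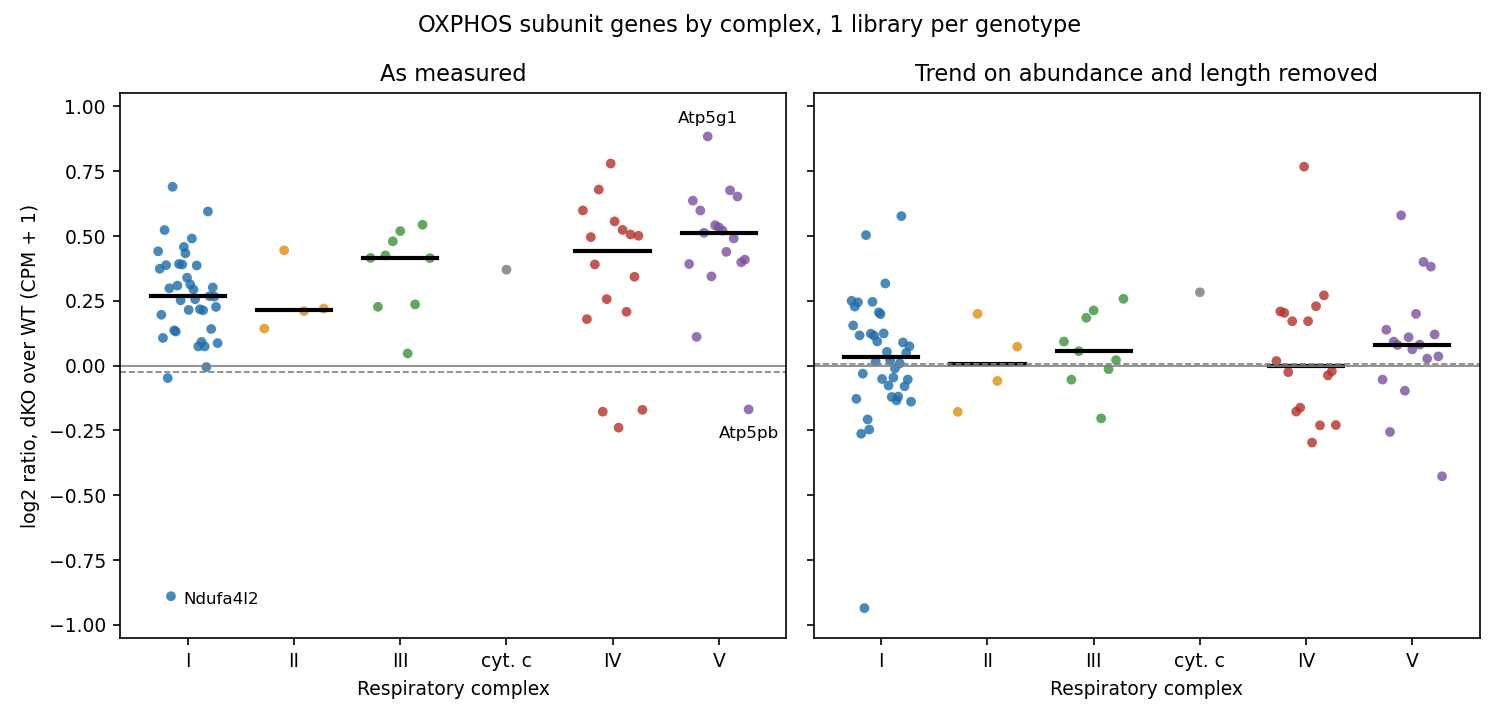
Log2 ratio of dKO over WT for each measured subunit gene by complex, as measured (left) and with the trend on abundance and transcript length over all measured genes removed (right); each point is 1 gene, black bars are medians, and the dashed line is the median of all 14885 measured genes. On the left the medians climb to 0.51 in complex V, and on the right they lie between -0.0018 (complex IV) and 0.08 (complex V).

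The split of the OXPHOS reads over the complexes, which no scaling of the libraries can move, comes from the same counts as the folds and is no separate support for them. It was not adjusted for the trend on abundance and length given below. Complex V held 43.4% of the members' reads in the dKO library (43.2 to 43.6) and 40.9% in the WT library (40.7 to 41.1), and complex IV held 17.8% in dKO and 17.0% in WT. Atp5b alone had 42252 of the 121273 complex V reads in dKO and 27155 of the 85928 in WT. The share of complex V therefore rests in large part on 1 gene. Complex I held 22.7% in dKO (22.5 to 22.9) and 24.98% in WT (24.8 to 25.2), and complex II held 5.36% in dKO and 6.19% in WT. Complex III held 9.86% in dKO (9.74 to 9.97) and 9.99% in WT (9.86 to 10.1), intervals that overlap. Taken per length, complex V held 35.9% in dKO and 33.9% in WT, and complex I 25.7% in dKO and 28.3% in WT.

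Length and abundance moved with the ratio over the whole transcriptome. Among all measured genes the median log2 ratio ran from 0.14 in the eighth with the shortest transcripts to -0.15 in the eighth with the longest. By mean CPM it was -0.16 in the least abundant eighth and 0.29 in the most abundant one. The members are short, with a median length of 727 bases against 2824 bases for all measured genes, and 67 of the 85 fall in the shortest eighth, where their median was 0.39. They are also abundant, with a median of 51.6 CPM in dKO and 38.1 CPM in WT, against 14.9 CPM in dKO and 16.0 CPM in WT for all measured genes. In eighths 5, 6 and 7 by mean CPM, the medians of the 17, 24 and 26 members were 0.31, 0.36 and 0.39. Those of all measured genes were -0.03, 0.04 and 0.13. The 2 members in eighth 4 had -0.45 against -0.14. Eighths by mean CPM do not account for length. Among genes in both the shortest and the most abundant eighth, the 149 that were not members had a median of 0.57, and the 6 members there had 0.57. Without the cytosolic ribosomal proteins, 89 of these 149 genes remained, with a median of 0.48. With a cubic trend on abundance and length removed, the members' median was 0.06, and 52 of the 85 were above 0, against 50.7% of all measured genes. Within the members themselves the ratio followed length and abundance only weakly, with Spearman correlations of -0.18 with length and 0.27 with mean abundance across the 85 genes.

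**Figure D3:**
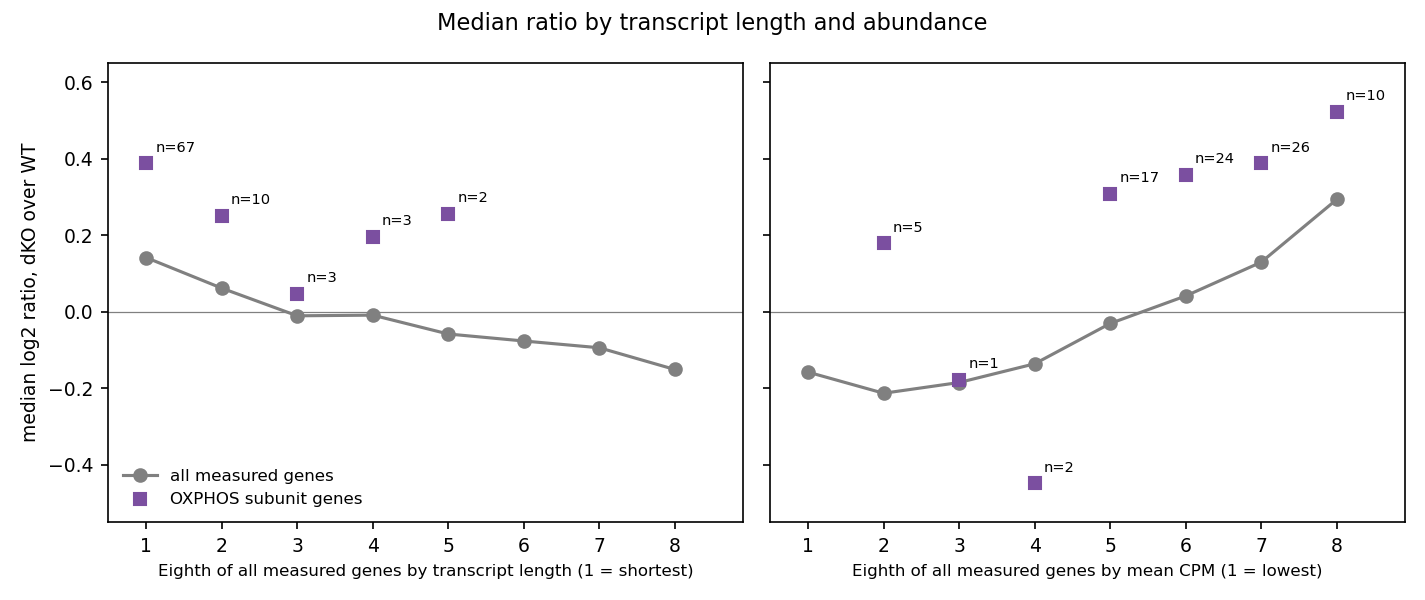
Median log2 ratio of dKO over WT in eighths of all 14885 measured genes (grey), ordered by transcript length (left) and by mean CPM (right), with the median of the subunit genes in each eighth as purple squares and their number beside it. The grey medians run from 0.14 to -0.15 with length and from -0.16 to 0.29 with abundance, and 67 of the 85 members sit in the shortest eighth.

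Complex I takes electrons from NADH, and its peripheral arm holds the catalytic core that all forms of the enzyme share. The 7 nuclear core genes had log2 ratios slightly above 0, with a median of 0.21 and a range of 0.07 to 0.30, and the fold interval of Ndufs3 includes 1 (0.975 to 1.14). With the trend on abundance and length removed their median was -0.05, and 2 of the 7 were above 0. Ndufv1, which binds NADH and the flavin, had 4601 counts in the dKO library and 3817 in the WT library (log2 ratio 0.27), and its partner Ndufv2 had 1703 in dKO and 1449 in WT (0.23). Ndufs1, the large iron-sulfur subunit of the same module, had 2252 counts in dKO and 2110 in WT (0.09). The core subunits near the quinone site spread from Ndufs8, with 1790 counts in dKO and 1444 in WT (0.30), to Ndufs3, with 1305 in dKO and 1237 in WT (0.07). Ndufs7 had 1304 counts in dKO and 1178 in WT (0.14).

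The 31 accessory members of complex I had a median of 0.30 and covered the whole range of the complex. By symbol series, the medians were 0.36 for the 10 Ndufb genes (0.22 to 0.49, all higher in dKO), 0.30 for the 15 Ndufa genes and 0.15 for the pair of Ndufc genes. Ndufa5, an accessory subunit of the arm that carries the quinone site (chr6:24518662-24527690), had the highest log2 ratio of the complex, 0.69 with the pseudocount, with 959 counts in dKO against 579 in WT, 1.66-fold higher in dKO (1.49 to 1.84). Ndufs5 had a log2 ratio of 0.59 with the pseudocount and the larger fold without it, with 99 counts in dKO and 52 in WT (1.90-fold, 1.35 to 2.72). Its transcribed pseudogene Ndufs5-ps had 1103 counts in dKO and 850 in WT, so most reads of this sequence pair were assigned to the pseudogene, and the value of Ndufs5 alone is uncertain. Summed, the pair had 1202 counts in dKO and 902 in WT, 1.33-fold higher in dKO (1.22 to 1.45). The most abundant accessory members per length were Ndufb10, with a level of 114 CPM per kilobase in dKO and 86.4 in WT, and Ndufa7, with 112 in dKO and 103 in WT. Ndufs4, whose loss in mice is a model of Leigh-like encephalopathy, had 570 counts in dKO and 572 in WT, and Ndufa3 had 648 in dKO and 671 in WT. For both, the interval of the fold includes 1 (0.885 to 1.12 for Ndufs4, 0.865 to 1.08 for Ndufa3).

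Ndufa4l2 was the member furthest from the others. It is a relative of Ndufa4 that is known to be induced in hypoxia through HIF1 and to lower complex I activity (chr10:127509274-127517154). It had 345 counts in the dKO library and 673 counts in the WT library, a fold of 0.512 (0.449 to 0.584) and a log2 ratio of -0.89. With the trend on abundance and length removed the log2 ratio was -0.94. Ndufa4 itself had 1829 counts in dKO and 1479 in WT (log2 ratio 0.30), so Ndufa4l2 made up 15.9% of the reads of the pair in dKO (14.4 to 17.5) and 31.3% in WT (29.3 to 33.3). It overlaps Shmt2 by 32 bases, a gene with 2275 counts in dKO and 2508 in WT (-0.14). Ndufa4l2 is also known to be expressed in mural cells, and the mural markers were lower in dKO in 6 of 6 genes (-1.41 to -0.39, median -0.86). Their part in the Ndufa4l2 result was not tested.

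Complex II, succinate dehydrogenase, is shared with the tricarboxylic acid cycle and is built from nuclear genes alone. All 4 subunits were higher in dKO with trimmed-mean library sizes, 1 of them by the 1.2-fold rule, and with library totals alone the median of the complex was -0.03. The iron-sulfur subunit Sdhb had 2196 counts in dKO and 1602 in WT, 1.37-fold higher in dKO (1.28 to 1.46). The flavoprotein Sdha, which holds the succinate site, had 8851 counts in dKO and 8009 in WT (1.10-fold, 1.07 to 1.14). The membrane anchors were between them: Sdhc had 2534 in dKO and 2184 in WT (1.16-fold), and Sdhd had 1392 in dKO and 1189 in WT (1.17-fold). The fold intervals of Sdha and Sdhb, which cover counting error, lie apart. Sdha was the most abundant per length, with a level of 77.4 CPM per kilobase in dKO and 70.0 in WT.

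Complex III moves electrons from ubiquinol to cytochrome c. All 9 members were higher in dKO, 6 of them by at least 1.2-fold. Uqcrh, the hinge protein that helps dock cytochrome c, had the highest ratio and level: 6325 counts in dKO and 4325 in WT, 1.46-fold higher in dKO (1.41 to 1.52), at levels of 289 CPM per kilobase in dKO and 198 in WT. Its promoter is the one shown above with the ETS word. The large core proteins Uqcrc1 and Uqcrc2, which form pairs in the enzyme, differed. Uqcrc1 had 4720 counts in dKO and 3280 in WT (1.44-fold, 1.38 to 1.5045), while Uqcrc2 had 3371 in dKO and 3260 in WT (1.03-fold, 0.985 to 1.09). The redox carriers stood between, with Cyc1 (cytochrome c1) at 3675 counts in dKO and 2744 in WT (log2 ratio 0.42) and Uqcrfs1 (the Rieske iron-sulfur protein) at 2529 in dKO and 2140 in WT (0.24). Uqcr10, a small subunit, had 1262 counts in dKO and 1072 in WT (0.23), and Uqcr11, the second most abundant per length, had levels of 126 CPM per kilobase in dKO and 93.0 in WT. Cycs, the somatic cytochrome c gene, whose promoter is shown above with the NRF1 word, had 2506 counts in dKO and 1929 in WT, 1.30-fold higher in dKO (1.22 to 1.38).

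Complex IV, cytochrome c oxidase, has several nuclear subunits with tissue isoforms, and as measured these split by isoform. The broadly expressed forms were higher in dKO. Cox4i1, the regulatory subunit needed for assembly, had 13128 counts in dKO and 8652 in WT (1.52-fold, 1.48 to 1.56), with the highest level of the complex at 441 CPM per kilobase in dKO and 291 in WT. Cox6a1 had 5908 counts in dKO and 3673 in WT (1.61-fold, 1.54 to 1.68), and Cox8a had 6258 in dKO and 4408 in WT (1.42-fold, 1.37 to 1.48). Cox7a2 had 2205 counts in dKO and 1521 in WT (log2 ratio 0.52), Cox7b had 1993 in dKO and 1391 in WT (0.51), and Cox6b1 had 3009 in dKO and 2511 in WT (0.26). The supercomplex factor Cox7a2l had 6222 counts in dKO and 5380 in WT (0.21).

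As measured, the 3 heart and muscle isoforms were the only members of the complex below 0. Cox6a2 had 159 counts in dKO and 185 in WT (log2 ratio -0.18), Cox8b had 104 in dKO and 122 in WT (-0.17), and Cox7a1 had 60 in dKO and 78 in WT (-0.24). Each fold interval alone includes 1, and the 3 together had 323 counts in dKO and 385 in WT, a fold of 0.839 (0.721 to 0.975). As a share of their families the difference is larger, since the broad forms were higher. Cox6a2 made up 2.62% of Cox6a reads in dKO (2.23 to 3.05) and 4.795% in WT (4.14 to 5.52). Cox7a1 made up 2.65% of Cox7a1 and Cox7a2 reads in dKO (2.03 to 3.40) and 4.88% in WT (3.87 to 6.05), and Cox8b 1.63% of Cox8 reads in dKO (1.34 to 1.98) and 2.69% in WT (2.24 to 3.21). Myofibre markers, from the cells in which these isoforms are abundant, were at or below the same level in dKO for most of the list: 2 of 12 were above 0, the range was -0.70 to 0.02, and their sum was 1032 CPM in dKO and 1216 CPM in WT. Their part in the isoform shares was not tested. In the eighths by mean CPM that hold the 3 isoforms, the medians of all measured genes were -0.21 and -0.18. With the trend on abundance and length removed, Cox6a2 was at -0.18, Cox8b at -0.23 and Cox7a1 at -0.30. Their broad partners were then at 0.17 (Cox6a1), -0.02 (Cox8a) and 0.23 (Cox7a2). Of the 16 measured members of the complex, 8 were then above 0.

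The other isoforms of complex IV were scarce. Cox6b2, known from testis (chr7:4751792-4753094), had 118 counts in dKO and 52 in WT, a fold of 2.27 (1.62 to 3.21) before a pseudocount is added and a log2 ratio of 0.78 with it. It made up 3.77% of Cox6b reads in dKO (3.13 to 4.50) and 2.03% in WT (1.52 to 2.65). Cox4i2, the isoform known from lung and from hypoxia, had 105 counts in dKO and 88 in WT (1.19-fold, 0.890 to 1.60) and overlaps Bcl2l1, which had 673 counts in dKO and 1152 in WT. Its share of the Cox4i reads was 0.793% in dKO (0.649 to 0.960) and 1.01% in WT (0.808 to 1.24), intervals that overlap.

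**Figure D4:**
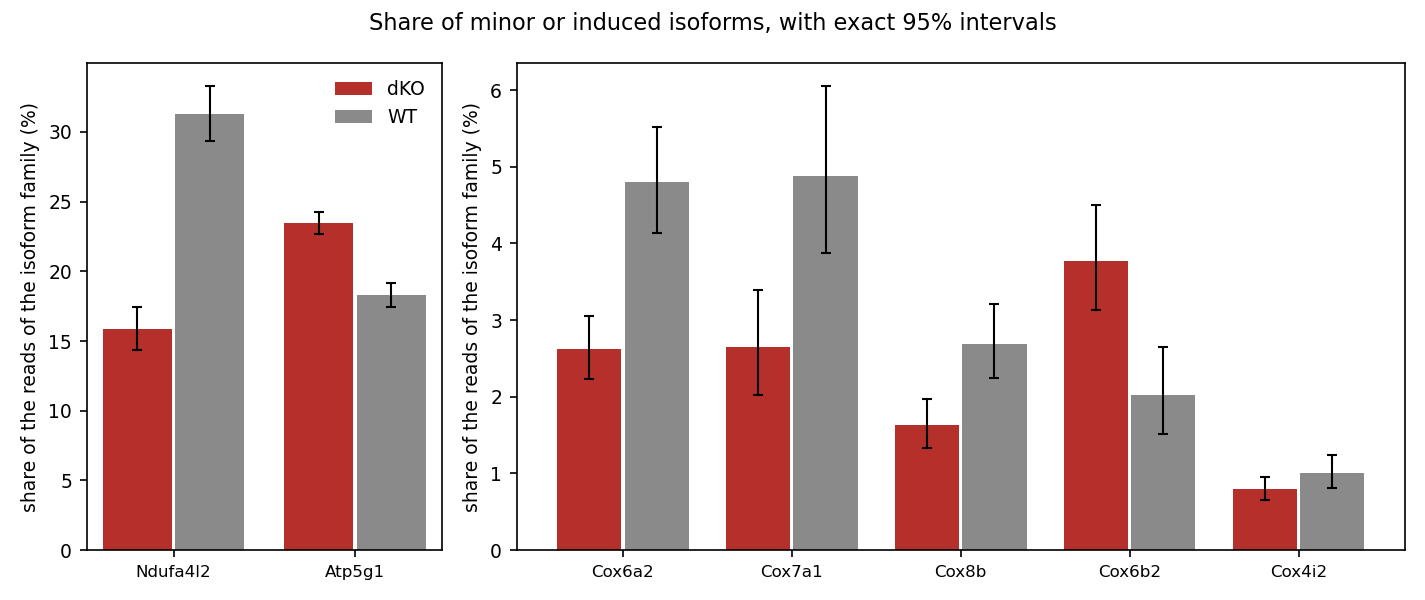
Share of the reads of an isoform family held by 1 isoform, in percent, in the dKO library (red, left bar of each pair) and the WT library (grey); error bars are exact 95% intervals of counting error in 1 library. Ndufa4l2 (15.9% in dKO, 31.3% in WT), Cox6a2, Cox7a1 and Cox8b held smaller shares in dKO, and Atp5g1 (23.5% in dKO, 18.3% in WT) and Cox6b2 held larger ones.

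Complex V, ATP synthase, had the largest median, and 15 of its 17 members were at least 1.2-fold higher in dKO. The F1 head holds the catalytic sites. Atp5b, its beta subunit (chr10:128083307-128090388), had 42252 counts in dKO and 27155 in WT, 1.56-fold higher in dKO (1.53 to 1.58), the most reads of all members. Atp5a1, the alpha subunit that alternates with beta in equal number, had 27101 counts in dKO and 20635 in WT (1.31-fold, 1.29 to 1.34), so the intervals of these partners lie apart. Within the central stalk, Atp5d (delta) had 9404 counts in dKO and 6195 in WT (log2 ratio 0.60), Atp5e (epsilon) had 3080 in dKO and 2146 in WT (0.51), and Atp5c1 (gamma) had 4241 in dKO and 3922 in WT (0.11). Atp5d overlaps Cbarp by 1658 bases, which had 1926 counts in dKO and 971 in WT (0.96), and since the strand setting of the counting is not known here, reads of such a pair cannot be told apart.

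The c-ring of the membrane part is encoded by Atp5g1, Atp5g2 and Atp5g3, whose products differ in the import sequence and give the same mature protein. Atp5g1 (chr11:96072793-96075694) had the highest log2 ratio of all members, 0.88, with 2691 counts in dKO and 1439 in WT (1.87-fold, 1.75 to 1.99). Atp5g3 had 4585 counts in dKO and 3136 in WT (1.46-fold), and Atp5g2 had 4198 in dKO and 3297 in WT (1.27-fold, 1.22 to 1.33). Atp5g1 therefore made up 23.5% of the c-subunit reads in dKO (22.7 to 24.2) and 18.3% in WT (17.4 to 19.2), and Atp5g2 36.6% in dKO and 41.9% in WT, while Atp5g3 held 40.0% in dKO and 39.8% in WT. With the trend on abundance and length removed, the log2 ratio of Atp5g1 was 0.58.

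Small subunits of the membrane part and the stator were all higher in dKO but for Atp5pb. Atp5k (subunit e, which takes part in the dimer of the enzyme) had 1079 counts in dKO and 660 in WT (1.63-fold, 1.48 to 1.80), and its promoter holds the NRF1 word. Atp5md, a small membrane subunit, had 1141 counts in dKO and 711 in WT (0.65), Atp5l (subunit g) 4197 in dKO and 2974 in WT (0.49), and Atp5o, the stator protein that binds the F1 head, 3355 in dKO and 2516 in WT (0.41). Atp5pb, subunit b of the stator, was the only member of the complex below 0, with 3122 counts in dKO and 3513 in WT, a fold of 0.888 (0.846 to 0.933). With the trend removed its log2 ratio was -0.43.

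The ratio was then set beside the promoter words. The 8 measured members with the NRF1 word had a median log2 ratio of 0.43, against 0.34 for 61 measured members with a window and without the word (Ndufa11, with 0.20, was the lowest and Cox6a1, with 0.68, the highest of the 8). The 3 members with the ETS word had a median of 0.53, against 0.34 for 66 measured members with a window and without it. Of the 8 members with the NRF1 word, 4 belong to complex V, which had the highest median of the complexes. The words were chosen after values were seen, and these differences were not tested.

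Among the 18 members with several transcript entries, the split between entries was examined after the values were seen. Ndufv3, an accessory subunit of complex I with a short and a long form, had nearly equal totals of 1624 counts in dKO and 1526 in WT. Its 487-base transcript took 63.8% of the reads in dKO (61.4 to 66.1) and 47.7% in WT (45.2 to 50.2), that is 1036 counts in dKO and 728 in WT, while the 1579-base transcript had 588 in dKO and 798 in WT. The 1027-base transcript of Ndufs8 took 22.9% in dKO (20.98 to 24.9) and 14.5% in WT (12.8 to 16.5). The 506-base transcript of Ndufs6 took 85.0% in dKO and 92.5% in WT, the 527-base transcript of Ndufa7 88.6% in dKO and 91.8% in WT, and the 2159-base transcript of Ndufb8 5.81% in dKO and 9.02% in WT. Against WT, the shorter transcript held more of the gene's reads in dKO for Ndufv3 and Ndufb8 and less for Ndufs6. The rule by which the authors divided reads between overlapping transcripts was not given in the sources used here, and these shares are those of the deposited table.

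**Figure D5:**
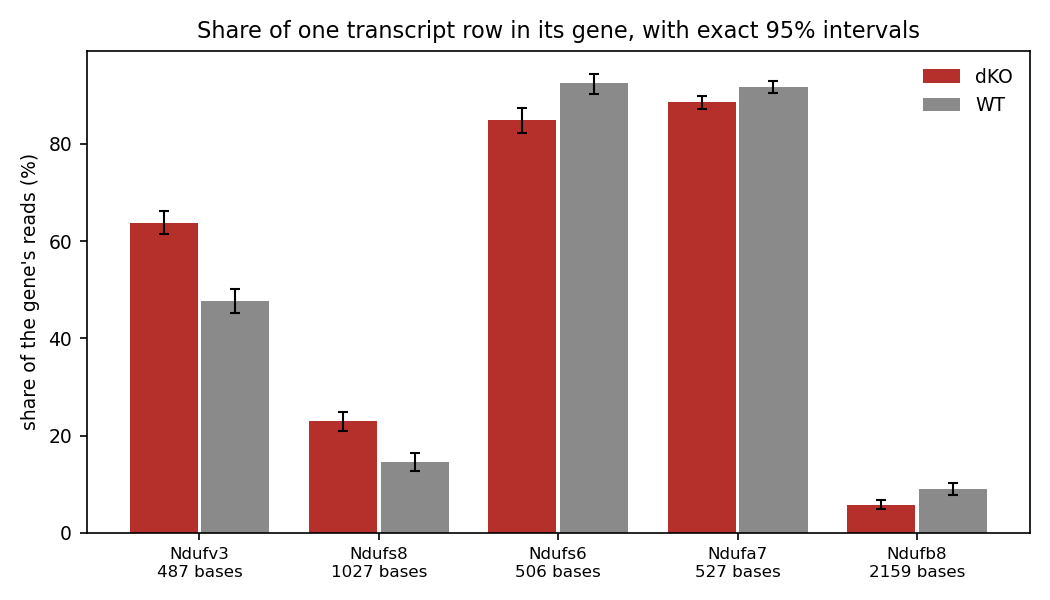
Share of a gene's reads held by 1 of its transcripts, in percent, in the dKO library (red, left bar of each pair) and the WT library (grey), for the complex I genes whose intervals lie apart by a share difference of at least 3 points; error bars are exact 95% intervals of counting error, and transcript lengths are below the names. The 487-base transcript of Ndufv3 differs most, with 63.8% in dKO and 47.7% in WT.

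Other genes of the pathway had lower medians than the subunits, apart from the cytosolic ribosomal proteins set beside them. Of 46 measured assembly factors, the proteins that build the complexes without staying in them, 19 were above 0, 8 were at least 1.2-fold higher and 16 at least 1.2-fold lower in dKO, with a median of -0.07. Among all measured genes 47.6% were above 0, 26.6% at least 1.2-fold higher and 30.7% at least 1.2-fold lower, so the factors stood near the background. The medians were -0.07 for complex I factors, 0.16 for complex II, -0.06 for complex III, -0.18 for complex IV and -0.28 for complex V. None was 2-fold apart on the scale with a pseudocount, though Coa4, a complex IV factor chosen after its values were seen, had 0 counts in dKO and 17 in WT, and the complex I factor Tmem126b had a fold of 0.484 without the pseudocount. On the scale with it, the complex IV factors Coa5 and Cox16, also chosen after their values were seen, were lowest and highest. Coa5 had 624 counts in dKO and 1222 in WT (-0.93), and Cox16 had 606 in dKO and 350 in WT (0.73). The most abundant of the factors per length were Uqcc2, for complex III, with 920 counts in dKO and 790 in WT (log2 ratio 0.21), and the copper chaperone Cox17, with 677 in dKO and 555 in WT (0.27). Atpaf2, which helps assemble the F1 head, had 297 counts in dKO and 444 in WT (-0.52), and Atpaf1, which also helps assemble it, had 143 in dKO and 139 in WT (0.03).

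Of 12 regulators of mitochondrial gene expression, 5 were above 0, and the median was -0.13. Ppargc1a, the coactivator known to raise mitochondrial content in muscle, was the only one 2-fold apart on the log2 scale with a pseudocount (-1.06), with 87 counts in dKO and 225 in WT, a fold of 0.387 (0.298 to 0.497) without it. On the scale without a pseudocount Tfb1m, which methylates mitochondrial ribosomal RNA, was as low, with 32 counts in dKO and 82 in WT, a fold of 0.390 (0.251 to 0.594). Tfam, which packages and transcribes mitochondrial DNA, had the highest ratio of the list, with 1634 counts in dKO and 909 in WT (1.80-fold, 1.66 to 1.95). Ppargc1b, a relative of Ppargc1a, had 123 counts in dKO and 206 in WT (fold 0.597, 0.473 to 0.750). With the trend on abundance and length removed, the log2 ratios were -0.64 for Ppargc1a, -0.64 for Tfb1m, -0.30 for Ppargc1b and 0.88 for Tfam. Ppargc1a was then less than 2-fold apart. Tfb1m, Tfam and Ppargc1b were chosen after their values were seen. Another relative, Pprc1, known for its induction when cells enter growth, had 12445 counts in dKO and 9091 in WT (log2 ratio 0.45), at levels of 59.3 CPM per kilobase in dKO and 43.3 in WT, where Ppargc1a was at 0.335 in dKO and 0.870 in WT. Yy1 had 5375 counts in dKO and 4156 in WT (0.37). Nrf1 had 1526 in dKO and 1397 in WT (0.12), and Gabpa, the DNA-binding subunit of GABP, had 2733 in dKO and 3262 in WT (-0.25); it overlaps Atp5j by 967 bases.

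The tricarboxylic acid cycle, which feeds NADH and succinate to the chain, had a median of 0.24 over 17 measured genes, 16 of them above 0 and 7 at least 1.2-fold higher in dKO; with library totals alone the median was -0.0046. Mdh2 (malate dehydrogenase) had 7167 counts in dKO and 5791 in WT (0.31). The 78 mitochondrial ribosomal proteins, which make the subunits encoded by mitochondrial DNA, had a median of 0.10, with 43 above 0. With library totals alone the median was -0.14. On the log2 scale with a pseudocount Mrps6 alone was 2-fold apart (1.19), with 1554 counts in dKO and 660 in WT, and without the pseudocount it was 2.35-fold higher in dKO (2.15 to 2.58) and Mrpl46, with 185 counts in dKO and 92 in WT, 2.01-fold (1.56 to 2.61). Mrpl52, the most abundant per length, had 2151 in dKO and 1368 in WT (0.64), and Mrpl24 had 3016 in dKO and 2130 in WT (0.49). The 80 measured cytosolic ribosomal proteins, also short and abundant transcripts, had a median of 0.60, above that of any OXPHOS complex, and 79 of them were above 0. Rpl13 had 79924 counts in dKO and 45949 in WT (0.80), and Rplp1 had 56725 in dKO and 37115 in WT (0.61). With the trend on abundance and length removed, the medians were -0.01 for assembly factors, 0.01 for regulators, 0.01 for the tricarboxylic acid cycle, 0.05 for mitochondrial and -0.01 for cytosolic ribosomal proteins, beside 0.06 for the OXPHOS members.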

How the data were processed

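Raw read counts per transcript were deposited, each transcript carrying its length in bases and the Entrez ID of its gene, per the file headers. The submitters' processing notes name TopHat2 (2.0.9), edgeR, bedtools and mm10 without saying how each was applied. The counting rule, read type, strand setting and annotation were not given in the sources used here. Symbols came from RefSeq genes of GRCm38 and matched 24462 of 24532 gene IDs; IDs without a symbol took 0.401% of the dKO and 0.314% of the WT reads. Of 90 protein-coding RefSeq genes with a fitting symbol, Ndufb1, Ndufb4b and Ndufb4c had no entry.

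The counts of a gene's transcripts were summed. Library sizes were scaled by the trimmed mean of M values in edgeR 4.0.16 (R 4.3.3), with factors of 0.916 for dKO and 1.09 for WT. The pseudocount was 1 CPM, and CPM per kilobase was summed over a gene's transcripts. Folds carry no pseudocount and have exact conditional binomial (Clopper-Pearson) 95% intervals; shares have exact Clopper-Pearson intervals, which bound counting error and not the spread between animals. The count limit for a gene at 0 was 3 per library. With 1 library per group no test was made, and sizes of 2-fold, 1.5-fold and 1.2-fold stand in for calls. The cubic trend was fitted over all measured genes on log2 mean CPM and log2 length; GC content for an added fit was taken from GENCODE M21 transcripts, which covered 95.3% of measured genes. Steps were tested on simulated counts. DESeq2 1.42.0 gave the median-ratio sizes used as an alternative.

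All members could be named, but a few genes are not reported here by name. Full values were given for the highest and lowest 2 by ratio and the 2 most abundant per length in each complex, for isoform families and for core subunits; in other lists for genes 2-fold apart or the 2 most abundant. The members and lists were chosen with earlier results of these data known. Other genes, the transcript shares and the promoter words were chosen after values were seen: a longer YY1 word found no member, and a 10-letter NRF1 word found 4, before the 8-letter forms were used. Alternatives were median-ratio sizes, library totals, the highest transcript, pseudocounts of 0.1 and 5, no count minimum or one of 100, the trend, members with 1 transcript, means, and Ndufa4 moved to complex IV without Cox7a2l.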

Additional observations from a re-analysis of the deposited data

How the results depend on the processing

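With 1 library per group nothing could be left out, and no paired analysis was possible because each group has 1 library. Of 132 alternative medians, 12 changed sign, 21 lay outside the order-statistic 95% interval of the reported median over its genes, and 99 lay inside it, an interval that is wide for short lists. With library totals alone, the medians were 0.12 for all members, 0.0217 for complex I, -0.0327 for complex II, 0.17 for complex III, 0.19 for complex IV, 0.26 for complex V, -0.28 for assembly factors, -0.36 for regulators, -0.0046 for the tricarboxylic acid cycle, -0.14 for mitochondrial and 0.35 for cytosolic ribosomal proteins and -0.24 for all measured genes; 1 member was at least 2-fold lower, 18 at least 1.2-fold higher and 6 at least 1.2-fold lower in dKO.

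With the trend on abundance and length removed, the medians were 0.0558 for all members, 0.0350 for complex I, 0.0071 for complex II, 0.0558 for complex III, -0.0018 for complex IV, 0.0813 for complex V, 0.0114 for regulators, 0.0110 for the tricarboxylic acid cycle, -0.0129 for cytosolic ribosomal proteins and 0.0060 for all measured genes, with 9 members at least 1.2-fold higher and 3 lower. With GC content added to the trend, an alternative chosen after seeing the data, they were 0.0643 for all members, 0.0413 for complex I, 0.0088 for complex II, 0.0808 for complex III, 0.0198 for complex IV, 0.0870 for complex V, 0.0082 for assembly factors, 0.0045 for regulators, 0.0010 for the tricarboxylic acid cycle, -0.0174 for cytosolic ribosomal proteins and 0.0051 for all measured genes, with 10 members higher and 4 lower. These settings change the scale or subtract a fitted trend by construction; why the libraries differ by length and abundance was not tested.

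A pseudocount of 0.1 put 1 member at least 2-fold higher and 2 at least 1.2-fold lower, and a pseudocount of 5 gave a median of -0.0140 for all measured genes. A minimum of 100 counts gave 0.0026 for all measured genes. A 1.5-fold in place of a 2-fold rule gave 10 members higher and 1 lower. Of 22 alternative share differences between dKO and WT, 19 lay within the interval spanned by the exact share intervals, and per kilobase those of complexes I, II and V were -2.64, -0.36 and 2.01 points. Members with few counts are limited by counting error. For example, Ndufs5 and Cox7a1 had under 100 counts in both libraries, and Cox6b2 and Cox4i2 had under 100 counts in WT alone.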
